A study of Mus musculus with 4 samples.

Results

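The genes examined here were the 42 genes of the glycolysis and fatty acid lists in the single-cell transcriptomes of embryonic mouse heart. They were found by gene symbol in the gene tables of all 4 libraries, where the whole series has 27998 gene rows, by a rule that uses no measured value, though the lists were drawn up with earlier results of these data known. Of the 42 genes, 20 encode glucose transporters, glycolytic enzymes and lactate dehydrogenase, 3 encode pyruvate dehydrogenase kinases, and 19 encode proteins of fatty acid uptake, activation and mitochondrial β-oxidation. In glycolysis, glucose enters through Slc2a1 or Slc2a4, is phosphorylated by hexokinase, split by aldolase, and ends as pyruvate, which lactate dehydrogenase converts to lactate. Pyruvate dehydrogenase kinases shut off pyruvate dehydrogenase, so that less pyruvate is turned into acetyl-CoA within the mitochondrion. Fatty acids are carried in by the carnitine palmitoyltransferases and shortened by acyl-CoA dehydrogenases, the trifunctional protein and 3-hydroxyacyl-CoA dehydrogenase. The fetal heart is known to lean on glucose and lactate, with fatty acid oxidation rising after birth, and several steps have muscle forms (Eno3, Pgam2, Slc2a4) and widely used forms (Eno1, Pgam1, Slc2a1).

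The libraries came from wild-type CD1 mouse hearts at embryonic day 16.5, without any treatment, and each of 4 microdissected regions gave 1 library. These were Zone I with the sinoatrial node (SAN region), Zone II with the atrioventricular node and His bundle (AVN/His region), and Zone III with the bundle branches and Purkinje fibers (BB/PF region) in the left and in the right ventricle. The labels give no animals or pooling for a library, so p-values over libraries measure the spread between these 4 samples only. After cells with under 500 genes were left out, 21035 of 22805 barcodes remained, at a median of 8480 to 9272 UMIs (unique molecular identifiers, each counting 1 captured mRNA molecule) per cell, and any pair of libraries shared 29 to 49 barcode sequences.

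Cells were clustered within zones without the 42 genes and named by fixed markers. The cardiomyocyte class held 12736 cells (2736 to 4258 per library) and the non-muscle class 7708 cells (757 to 2769 per library). The non-muscle class joined fibroblast-like, endothelial-like, macrophage-like, mural-like, epicardial-like and neural-like cells and 1197 unnamed cells. It includes smooth muscle cells of vessels. A further 591 cells lay in clusters with markers of cardiomyocytes and of another class together, and were left out. Within cardiomyocytes, 2924 cells were atrial-like, 9457 ventricular-like, 115 SAN-like and 63 Purkinje fiber-like (PF-like). The atrial-like cells of the SAN region include a cluster of 176 cells that carried 9 atrial markers and did not meet the SAN rule. Its leading genes held Shox2, Igfbp5 and Cacna2d2, which also led the SAN-like cluster, so SAN-like cells are compared partly with cells that resemble them. A cluster of 77 cells in the AVN/His region carried 7 of 8 AVN/His markers, but its 10 leading genes held the atrial genes Myl7, Sln and Myl4 and none of those markers, and it is called the AVN-region cluster here. SAN-like cells, PF-like cells and this cluster are called conduction classes for short, although the cluster could not be named as such. A further cluster of 100 cells in the AVN/His region, led by Csrp3 and Apobec2, met the marker rule of no subtype and stayed unnamed, and it enters only the sums of all cardiomyocytes and of those outside the conduction classes. The median share of mitochondrially encoded UMIs was 11% to 18.0% in cardiomyocytes and 3.01% to 4.24% in non-muscle cells, highest in the right ventricle in both. Levels are given as UMIs per 10000 UMIs of a class in a library. Since each molecule is counted once at its 3′ end, they were not divided by gene length, and levels of different genes are not compared beyond the shares of isoenzymes.

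To ask where the 2 pathways were used, cardiomyocytes were first compared with non-muscle cells. Both sums were higher in cardiomyocytes in all 4 libraries, by 2.69-fold to 3.84-fold. The 20 glycolysis genes together took 124.9 ± 4.21 UMIs per 10000 in cardiomyocytes and 41.3 ± 5.46 in non-muscle cells (mean ± SD, n = 4 libraries). The ratio was 3.29 in the SAN region, 3.32 in the AVN/His region, 2.69 in the left ventricle and 2.93 in the right ventricle. The 19 fatty acid genes took 45.5 ± 8.2 UMIs per 10000 in cardiomyocytes and 12.4 ± 1.90 in non-muscle cells, a ratio of 3.46, 3.76, 3.54 and 3.84 in the same order of libraries. The 3 kinases took 1.87 ± 0.0907 against 0.365 ± 0.0509. Groups did not overlap for any of the 3 sums. With 4 paired libraries an exact permutation test cannot reach a p of 0.05 (the smallest it allows rounds to 0.13), so the sums were described by their spread. The order of non-muscle classes given here leaves out epicardial-like, neural-like and unnamed cells. Among the others the mean glycolysis sum was lowest in endocardial-like cells (31.4). Fibroblast-like (36.8), mural-like (45.5), coronary-like (49.8) and macrophage-like cells (51.6) followed. The fatty acid sum ran from 9.16 in endocardial-like through 11 in mural-like, 11.6 in macrophage-like and 11.9 in fibroblast-like to 15.0 in coronary-like cells. Neighbours in both orders overlapped over the libraries.

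**Figure D1:**
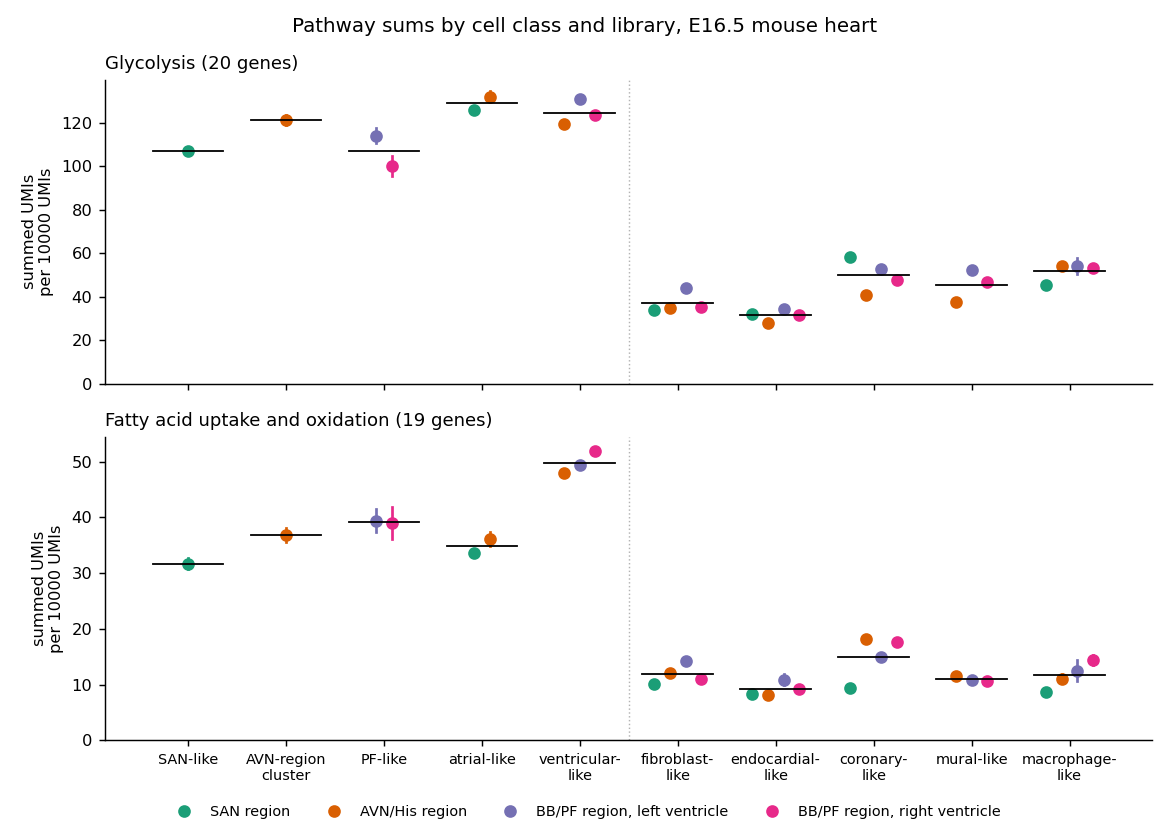
Summed UMIs per 10000 of the 20 glycolysis genes (upper panel) and the 19 fatty acid genes (lower panel) by cell class, with 1 point per library that had at least 20 cells of the class, 95% Poisson intervals as vertical lines (hidden by the points where short) and the mean as a black line. All cardiomyocyte classes, left of the dotted line, start at 100.1 for glycolysis and 31.7 for fatty acid genes, and among the classes right of it the highest values are 58.0 and 18.1, both in coronary-like cells.

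UMIs of each gene were then summed per library and class and compared by the quasi-likelihood test of edgeR, with library as a block. A gene was called at an adjusted p under 0.05 over 13758 genes. All 20 glycolysis genes, all 3 kinases and 17 of 18 tested fatty acid genes were called higher in cardiomyocytes, and none lower, where 33.9% of all genes tested were called higher and 36.7% lower. The median log2 fold change was 2.0 for the glycolysis genes, 2.94 for the kinases and 2.23 for the fatty acid genes, against -0.03 over all genes tested. Fold changes are on edgeR's TMM scale, which lay 0.40 (log2) above plain totals in the median gene of this comparison, -0.16 for atrial against ventricular cells and -0.26 for conduction against other cardiomyocytes.

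**Figure D2:**
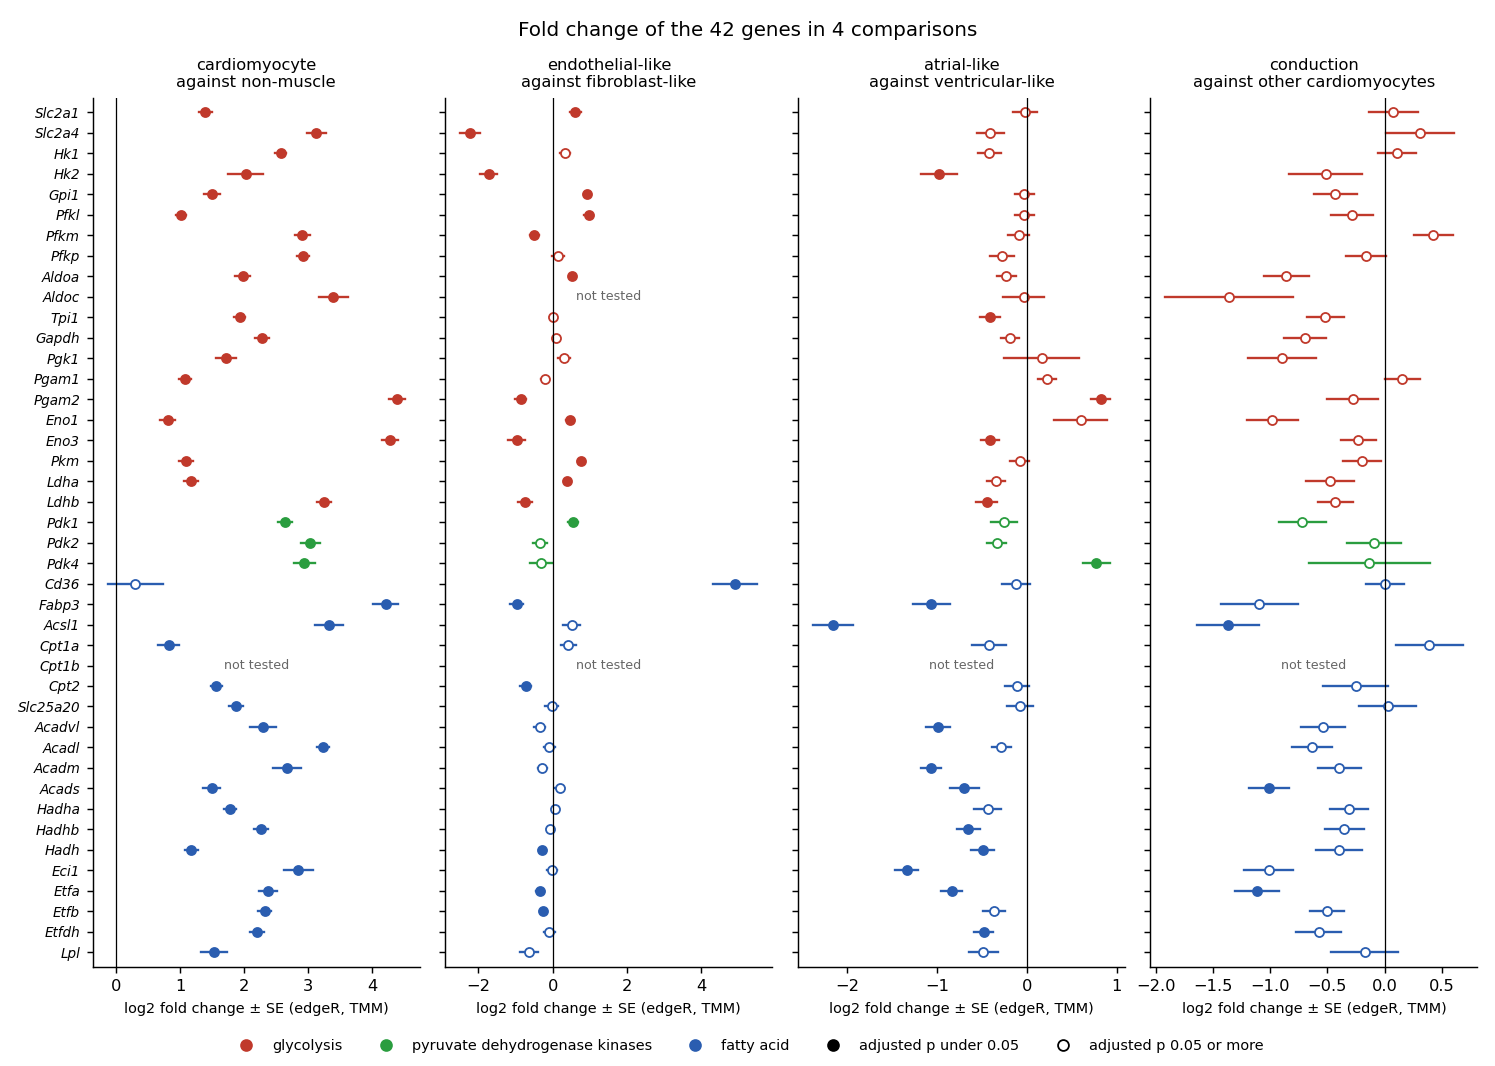
Log2 fold change ± SE (edgeR, TMM scale) of each of the 42 genes in 4 comparisons, with filled circles for an adjusted p under 0.05. Glycolysis genes are red, pyruvate dehydrogenase kinases green and fatty acid genes blue. In the left panel all points but Cd36 are filled and lie right of 0, and in the right panel 3 blue points are filled.

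Pgam2 and Eno3 had the largest changes of the 20 glycolysis genes. Pgam2, the muscle phosphoglycerate mutase, stood at 15.8, 8.26, 8.86 and 7.99 UMIs per 10000 in cardiomyocytes of the SAN region, AVN/His region, left ventricle and right ventricle, and at 1.09, 0.489, 0.634 and 0.439 in non-muscle cells (log2 fold change 4.38 ± 0.13 SE, adjusted p = 9.97e-06). The SAN region was highest in both classes for Pgam2. Eno3, the muscle enolase, stood at 5.53, 6.46, 6.69 and 6.69 against 0.421, 0.412, 0.506 and 0.394 (4.28 ± 0.12, adjusted p = 9.97e-06), with no overlap. Ldhb, the lactate dehydrogenase subunit typical of heart, stood at 9.15, 10.5, 12.7 and 10.7 against 1.40, 1.31, 1.87 and 1.42 (3.25 ± 0.112, adjusted p = 1.21e-05). Slc2a4, the insulin-responsive glucose transporter, lay between 0.216 and 0.267 in cardiomyocytes and between 0.0294 and 0.0429 in non-muscle cells (3.12 ± 0.146). Phosphofructokinase, which commits sugar to glycolysis, rose in its muscle form Pfkm (0.705 to 0.781 against 0.107 to 0.153, log2 fold change 2.91) and platelet form Pfkp (0.877 to 1.06 against 0.139 to 0.216, 2.92), and less in its liver form Pfkl (0.654 to 0.748 against 0.423 to 0.470, 1.01). Hk1, the hexokinase held on mitochondria in most tissues, lay at 1.14 to 1.52 against 0.273 to 0.335 (2.57), and Hk2, the muscle and insulin-regulated hexokinase, at 0.260 to 0.543 against 0.112 to 0.159 (2.02). Against macrophage-like cells alone Hk2 was called lower in cardiomyocytes (-0.81, adjusted p = 0.0314).

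The remaining glycolysis genes were called higher in cardiomyocytes too. Gapdh, which oxidizes glyceraldehyde 3-phosphate and took 27.4% to 29.4% of the cardiomyocyte glycolysis sum, lay at 33.8 to 36.9 UMIs per 10000 against 8.21 to 11.4 (log2 fold change 2.27). The aldolase gene Aldoa lay at 15.4 to 17.7 against 4.66 to 6.79 (1.98), and its brain-type paralog Aldoc, with few UMIs, at 0.109 to 0.159 against 0.0124 to 0.0247 (3.39). Tpi1, which interconverts the triose phosphates, lay at 8.76 to 11.3 against 3.23 to 3.98 (1.93). Gpi1, the phosphoglucose isomerase, lay at 3.80 to 4.51 against 1.65 to 2.32 (1.49). Slc2a1, the basal glucose transporter, lay at 0.321 to 0.414 against 0.163 to 0.220 (1.39). Ldha, the lactate dehydrogenase subunit typical of glycolytic tissues, lay at 11.1 to 13.3 against 6.19 to 9.17 (1.17). Pyruvate kinase, Pkm, lay at 6.71 to 7.41 against 3.78 to 5.47 (1.09), and Pgam1 at 4.01 to 5.48 against 2.63 to 3.22 (1.07). Groups overlapped for the remaining pair. Eno1, the widely used enolase, had the smallest change of the 20 (1.43 to 2.90 against 1.25 to 2.22, log2 fold change 0.80 ± 0.110, adjusted p = 0.00118), and Pgk1, phosphoglycerate kinase, lay at 0.158 to 0.486 against 0.0673 to 0.165 (1.71). Gapdh, Aldoa, Tpi1, Pgk1, Pgam1, Eno1, Pkm and Ldha have near-identical processed copies in the mouse genome to which reads could be split, so their levels are uncertain.

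The balance between isoenzymes differed between the classes, without overlap over the libraries for all groups named here but the hexokinases. Of the UMIs of both enolases, Eno3 took 74.6 ± 6.96% in cardiomyocytes and 21.5 ± 4.0% in non-muscle cells (mean ± SD, n = 4). Pgam2 took 68.2 ± 4.05% of the mutase UMIs against 18.4 ± 6.6%, Ldhb 46.7 ± 1.45% of the lactate dehydrogenase UMIs against 17.2 ± 1.03%, and Slc2a4 39.1 ± 3.41% of the glucose transporter UMIs against 16.1 ± 2.04%. Pfkl made up 28.2 ± 2.0% of phosphofructokinase UMIs in cardiomyocytes and 59.4 ± 1.82% in non-muscle cells. Hexokinase shares overlapped, as Hk2 took 22.5 ± 3.94% in cardiomyocytes and 29.7 ± 4.94% in non-muscle cells, and 72.4 ± 10.1% in macrophage-like cells, where Hk2 stood at 1.09, 0.598, 0.753 and 0.592 UMIs per 10000 beside 0.318, 0.120, 0.342 and 0.390 for Hk1. In endothelial-like cells the shares were 4.61 ± 1.36% for Slc2a4 and 10.3 ± 1.05% for Ldhb. Aldoa took 99.2% of the aldolase UMIs in cardiomyocytes and 99.7% in non-muscle cells.

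**Figure D3:**
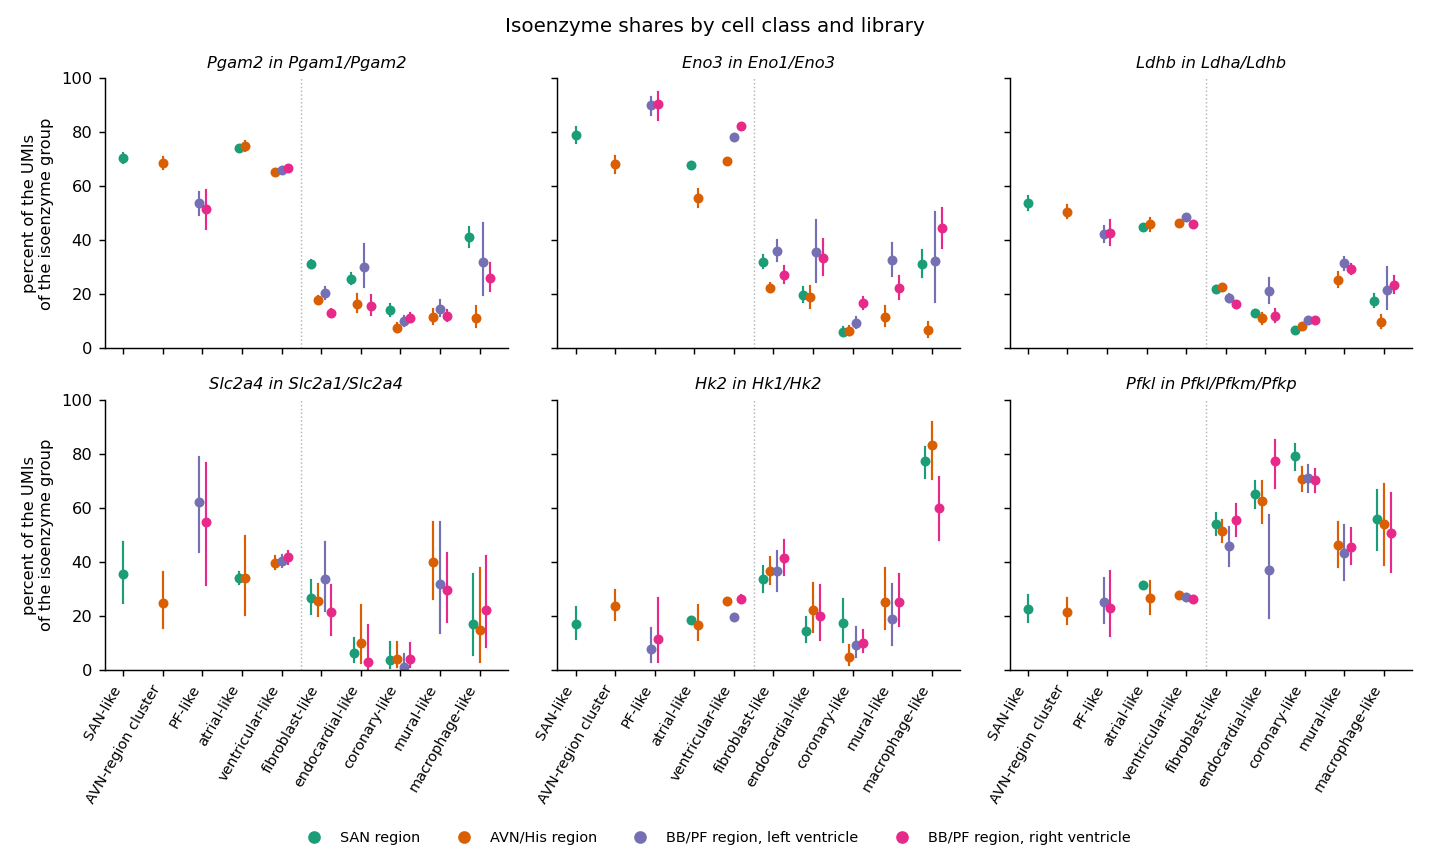
Percent of the UMIs of an isoenzyme group taken by the named gene, by cell class and library (points) with 95% exact binomial intervals, for classes with at least 20 UMIs of the group in a library. Shares of Pgam2, Eno3 and Ldhb are higher in all cardiomyocyte classes, left of the dotted line, than in all non-muscle classes shown. Among the classes shown, Hk2 is the larger share only in macrophage-like cells. In epicardial-like cells, not shown, Hk2 took 41.9% and 66.7% in 2 libraries, from 49 hexokinase UMIs.

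UMIs of muscle genes were also counted in non-muscle cells, and whether free RNA or doublets carried them was not tested. The 8 cardiomyocyte markers (Tnnt2, Actn2 and others) stood in non-muscle cells at 5.36% to 6.36% of their level in cardiomyocytes of the same library. Pgam2 stood at 6.37%, Eno3 at 6.87% and Fabp3 at 7.35% on average, next to that range, so their non-muscle UMIs cannot be told from background. The other members lay above it, from 12.7% for Aldoc to 77.0% for Eno1 and 127% for Cd36. In endothelial-like cells the markers stood at 3.34% to 4.22%, with Pgam2 at 4.08%, Eno3 at 4.20%, Fabp3 at 4.32% and Slc2a4 at 4.43%.

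The 3 pyruvate dehydrogenase kinases moved with the glycolysis genes. Pdk1, the kinase induced under low oxygen, lay at 1.17, 1.03, 1.24 and 1.23 UMIs per 10000 in cardiomyocytes of the 4 libraries and at 0.294, 0.215, 0.245 and 0.242 in non-muscle cells (log2 fold change 2.64 ± 0.109, adjusted p = 1.82e-05). Pdk2 lay at 0.518 to 0.583 against 0.0679 to 0.102 (3.03). Pdk4, the kinase tied to fasting and fatty acid use, was the lowest of them, at 0.108 to 0.219 against 0.0157 to 0.0401 (2.94), with its highest level in the SAN region.

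Of the fatty acid genes, Fabp3 showed the largest change. Fabp3, the heart fatty acid-binding protein, stood at 4.45, 11.1, 9.82 and 11.4 UMIs per 10000 in cardiomyocytes and at 0.459, 0.668, 0.678 and 0.70 in non-muscle cells (log2 fold change 4.21 ± 0.191, adjusted p = 2.36e-05). The SAN region was the lowest library in both classes. Acsl1, the acyl-CoA synthetase that activates fatty acids, stood at 0.361, 1.04, 1.3 and 1.56 against 0.0766, 0.132, 0.16 and 0.148 (3.32 ± 0.221), again lowest in the SAN region. Acadl, the long-chain acyl-CoA dehydrogenase, stood at 5.09 to 6.15 against 0.703 to 0.942 (3.22). Its relatives followed, with the medium-chain enzyme Acadm at 1.80 to 3.40 against 0.503 to 0.685 (2.67), the very-long-chain enzyme Acadvl at 0.746 to 1.44 against 0.257 to 0.391 (2.29) and the short-chain enzyme Acads at 0.612 to 1.10 against 0.376 to 0.462 (1.49). Both subunits of the trifunctional protein were higher, Hadha at 1.97 to 2.47 against 0.816 to 0.860 (1.77) and Hadhb at 2.15 to 3.01 against 0.671 to 0.773 (2.27). Eci1, an enoyl-CoA isomerase for unsaturated chains, lay at 1.04 to 2.74 against 0.317 to 0.436 (2.84), and Hadh, the 3-hydroxyacyl-CoA dehydrogenase, at 1.36 to 1.67 against 0.814 to 0.964 (1.17). The electron transfer flavoprotein that takes up the electrons of β-oxidation was higher in both subunits, Etfa at 2.14 to 3.82 against 0.732 to 0.904 (2.37) and Etfb at 4.83 to 6.03 against 1.40 to 1.55 (2.32), as was its dehydrogenase Etfdh at 0.719 to 0.913 against 0.221 to 0.282 (2.20).

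The carnitine shuttle was represented by low counts. Slc25a20, the carnitine carrier of the inner membrane, lay at 0.258 to 0.303 UMIs per 10000 in cardiomyocytes against 0.0810 to 0.120 (log2 fold change 1.88), and Cpt2 at 0.259 to 0.299 against 0.110 to 0.140 (1.56). Cpt1a, the liver form of the rate-setting outer enzyme, overlapped between classes (0.123 to 0.162 against 0.0658 to 0.139). Its log2 fold change was 0.82 ± 0.17 (adjusted p = 0.00634), the call was lost on plain totals, and it changed sign against macrophage-like cells. Cpt1b, the muscle form, had 8, 10, 8 and 4 UMIs in all cardiomyocytes of a library and 6, 0, 0 and 0 in non-muscle cells, which was too few to be tested. A count of 0 allows a level of up to 0.00123 UMIs per 10000 in the AVN/His region. Lpl, the lipase that frees fatty acids from circulating triglyceride, lay at 3.89 to 5.09 against 1.17 to 2.88 (1.53).

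Cd36 was the exception among the 42 genes. Cd36, the fatty acid translocase of muscle and capillary endothelium, stood at 1.55, 1.25, 1.28 and 1.54 UMIs per 10000 in cardiomyocytes and at 0.474, 1.6, 2.17 and 2.79 in non-muscle cells. It was higher in cardiomyocytes in the SAN region and lower in the other 3 libraries (log2 fold change 0.30 ± 0.433, adjusted p = 0.563). Its sign turned on plain totals, without the SAN region and against endothelial-like cells alone. Against fibroblast-like or macrophage-like cells alone it was called higher in cardiomyocytes (log2 fold change 3.99 and 1.26).

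In the other lists, called genes moved in both directions. Of 26 tested other glucose genes, 15 were called higher in cardiomyocytes and 4 lower, led by the muscle glycogen phosphorylase Pygm (log2 fold change 3.89 ± 0.0965) and the lactate transporter Slc16a1 (2.89 ± 0.574) and, lower, by Pgm1 (-3.00 ± 0.149) and G6pdx of the pentose phosphate pathway (-1.69 ± 0.202). Of 27 other fatty acid genes, 17 were higher and 7 lower, with the lipid droplet protein Plin4 (4.20) and the lipoprotein receptor Vldlr (3.73) at one end and Gpihbp1, which anchors lipase on capillaries (-5.42), and Fabp4 (-5.22) at the other. Of 20 regulators, 13 were higher, led by the AMP kinase subunit Prkaa2 (4.34) and the mitochondrial coactivator Ppargc1a (4.26), and 5 lower, led by Pparg (-5.63) and Epas1 (-3.43). Of 12 genes of the hypoxia response, 4 were higher, among them Vegfa (2.24) and Bnip3 (2.16), and 3 lower, among them Car9 (-1.99) and Ankrd37 (-1.96). The median of that list was -0.07.

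Promoter sequence was available for 39 of the 42 genes (53 promoters of 32851 in the table, RefSeq, GRCm38.p6, from 250 bases before to 50 after the start). ACGTG, the core of the hypoxia response element and also part of the E-box CACGTG, lay on either strand in promoters of 11 of 19 glycolysis genes (13 of 30 promoters), 1 of 17 fatty acid genes (1 of 18 promoters) and 1 of 3 kinase genes, and in 19.6% of all promoters. GCGTG lay in 12 of 19 glycolysis and 9 of 17 fatty acid genes (17 of 30 and 9 of 18 promoters), in Pdk1 and Pdk4, and in 32.4% of all promoters. AAGGTCA, the site of estrogen-related receptors, lay in Eno1, Tpi1 and Acadm (4.72% of all promoters), and a direct repeat of AGGTCA with 1 base between in none (0.0396%). CATTCC lay in 5 glycolysis and 4 fatty acid genes (6 of 30 and 4 of 18 promoters) and in Pdk2 (14.7% of all promoters). CATGTG lay in Hk1, Pgam2 and Fabp3 (14.2%) and the MEF2 motif in Pgam2 alone (3.19%). All motifs were searched on both strands, so that a CACGTG holds ACGTG on each of them. The sequences of 3 genes that differed between classes are given as the 200 bases before the start, along the strand of the gene, with no base in an annotated GENCODE exon. For Ldha, which has another promoter without the motif, the one with matches is shown. Capitals mark ACGTG or its reverse complement CACGT in Ldha and Hk2, and the MEF2 motif in Pgam2. A match is a description and no measurement of binding.
Ldha (chr7:46845604-46845803, plus strand): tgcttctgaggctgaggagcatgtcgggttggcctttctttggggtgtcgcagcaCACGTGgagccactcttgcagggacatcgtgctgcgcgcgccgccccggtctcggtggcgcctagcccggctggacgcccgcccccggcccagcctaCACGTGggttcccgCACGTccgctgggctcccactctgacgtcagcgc
Hk2 (chr6:82774455-82774654, minus strand): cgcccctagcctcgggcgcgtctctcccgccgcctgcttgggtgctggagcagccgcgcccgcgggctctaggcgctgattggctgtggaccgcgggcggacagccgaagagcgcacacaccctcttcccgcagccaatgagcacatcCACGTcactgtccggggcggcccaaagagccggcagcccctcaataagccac
Pgam2 (chr11:5803797-5803996, minus strand): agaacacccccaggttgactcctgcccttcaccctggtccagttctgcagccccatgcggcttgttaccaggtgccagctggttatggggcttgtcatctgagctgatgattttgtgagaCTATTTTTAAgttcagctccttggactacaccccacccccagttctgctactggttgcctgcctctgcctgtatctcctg

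**Figure D4:**
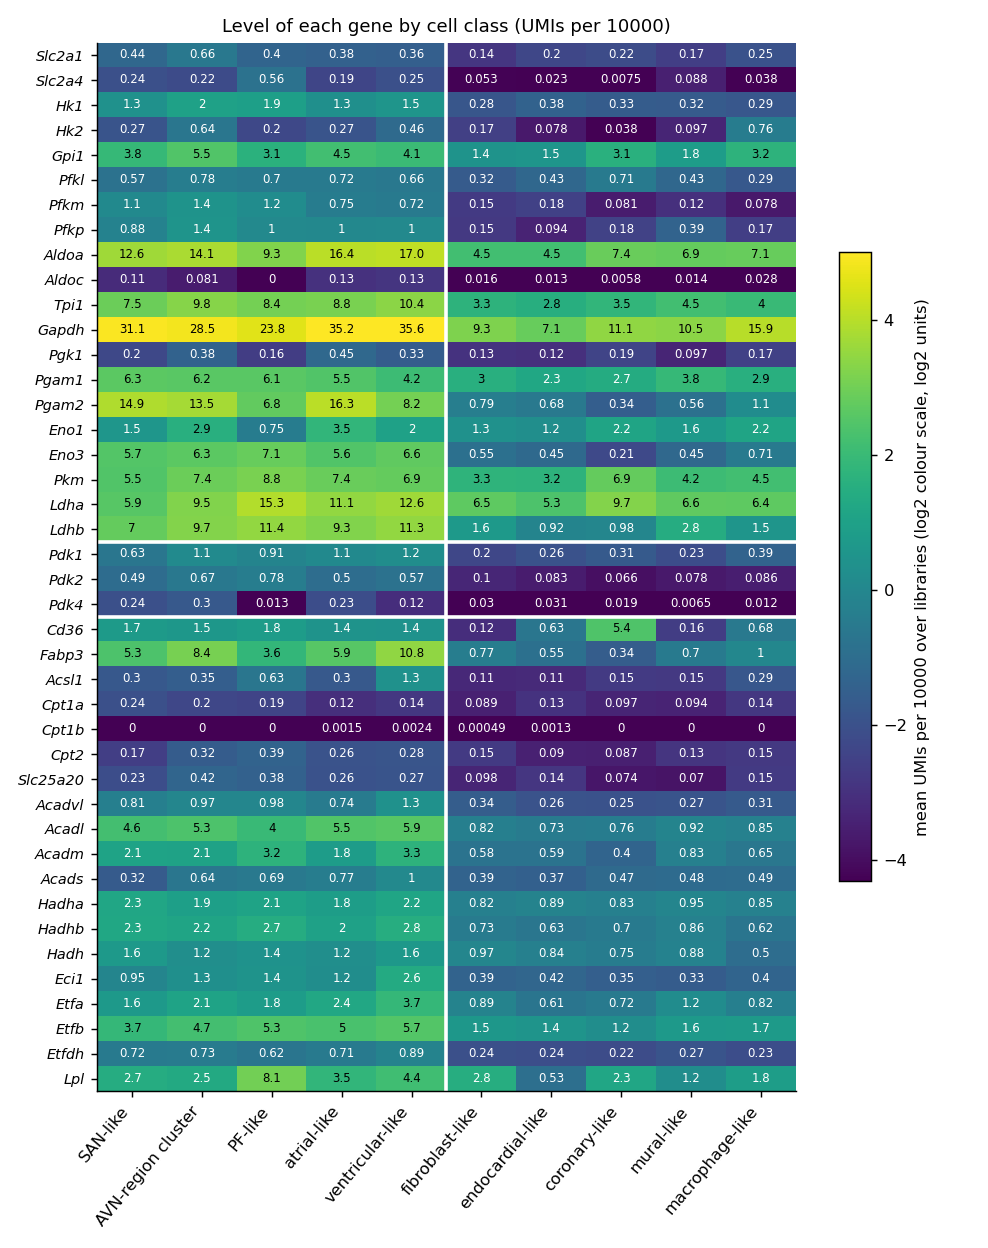
Mean level over libraries (UMIs per 10000, printed in each cell) of the 42 genes in 10 cell classes, coloured on a log2 scale. The 5 cardiomyocyte columns, left of the white line, are brighter than the non-muscle columns for most rows, with Cd36 in coronary-like cells and Hk2 in macrophage-like cells as exceptions.

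Among non-muscle cells, endothelial-like cells were compared with fibroblast-like cells. The glycolysis sum was higher in endothelial-like cells in all 4 libraries but by little, with ratios of 1.21, 1.06, 1.16 and 1.27 (mean log2 ratio 0.23 ± 0.11 SD). The fatty acid sum showed no common direction, with ratios of 0.865, 1.23, 1.02 and 1.47 (0.17 ± 0.33). Endocardial-like and coronary-like cells made up the endothelial-like class unevenly, at 558 and 188 cells in the SAN region and 186 and 294 in the AVN/His region. They numbered 46 and 230 in the left and 125 and 367 in the right ventricle, and the part of this mix in the ratios was not tested. Of 19 tested glycolysis genes 7 were called higher and 6 lower, and of 18 fatty acid genes 1 was called higher and 5 lower, where 23.9% of 11827 genes were called higher and 24% lower. Pdk1 was higher (0.229 to 0.347 UMIs per 10000 against 0.167 to 0.260, log2 fold change 0.55 ± 0.124, adjusted p = 0.0115).

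Pfkl had the largest change of the 7 glycolysis genes called higher in endothelial-like cells. It stood at 0.556, 0.629, 0.645 and 0.610 UMIs per 10000 in endothelial-like and at 0.345, 0.340, 0.297 and 0.286 in fibroblast-like cells (log2 fold change 0.97 ± 0.110, adjusted p = 0.000611). Gpi1 stood at 2.17 to 2.91 against 1.26 to 1.62 (0.93) and Pkm at 4.60 to 6.97 against 3.06 to 3.86 (0.77), neither with overlap. Slc2a1 (0.180 to 0.245 against 0.122 to 0.166, 0.62), Aldoa (5.41 to 7.35 against 4.03 to 5.39, 0.53), Eno1 (1.37 to 1.99 against 0.983 to 1.87, 0.47) and Ldha (6.59 to 10.3 against 5.56 to 8.28, 0.38) were the others. Of the 6 called lower, Slc2a4 stood at 0.00720 to 0.0140 against 0.0334 to 0.0661 (-2.22 ± 0.269) and Hk2 at 0.0326 to 0.0606 against 0.132 to 0.208 (-1.72 ± 0.231). Pgam2 (-0.86), Eno3 (-0.97), Ldhb (-0.74) and Pfkm (-0.49) were the remaining ones. The cardiomyocyte marker sum was also lower in endothelial-like cells, at 11 ± 2.60 UMIs per 10000 against 23.3 ± 5.62 in fibroblast-like cells, and the part of muscle RNA from free RNA or doublets in the lower values was not tested. With Scrublet scores of at least 0.2 left out, the calls of Pgam2 (-0.21, adjusted p = 0.408), Eno3 (-0.40, adjusted p = 0.269), Ldhb (-0.47, adjusted p = 0.152) and Pfkm (-0.38, adjusted p = 0.0570) were lost, and those of Slc2a4 and Hk2 were kept in all 20 alternatives. Without the AVN/His region the calls of Eno3, Ldhb and Pfkm were lost as well.

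Cd36 separated endothelial-like from fibroblast-like cells more than any other of the 42 genes. It stood at 0.912, 5.25, 4.39 and 5.94 UMIs per 10000 in endothelial-like cells and at 0.140, 0.0931, 0.142 and 0.0872 in fibroblast-like cells (log2 fold change 4.91 ± 0.603, adjusted p = 0.000843). The SAN region, where most endothelial-like cells were endocardial-like, was the lowest endothelial library and still lay above all fibroblast values. Fibroblast-like Cd36 stood at 8.31% of its cardiomyocyte level, where the 8 cardiomyocyte markers stood at 6.87% to 8.46%, so it cannot be told from background and the fold change is against such a value. The 5 fatty acid genes called lower were Fabp3 (0.231 to 0.547 against 0.453 to 1.02, -0.97 ± 0.182), Cpt2 (0.0806 to 0.0954 against 0.135 to 0.167, -0.72 ± 0.139), Etfa (-0.33 ± 0.103), Hadh (-0.27 ± 0.0857) and Etfb (-0.25 ± 0.0846). Calls for Etfa, Hadh and Etfb, with adjusted p of 0.0365, 0.0379 and 0.0484, were lost in 9, 7 and 11 of the alternatives, and that for Fabp3 was lost with high Scrublet scores left out (-0.39, adjusted p = 0.208). Lpl was not called (0.582 to 2.44 against 1.61 to 4.29, -0.63 ± 0.232, adjusted p = 0.0612).

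Of the other lists, 1 of 25 other glucose genes was called higher (Pgm1, 0.94) and 15 lower, led by Ugp2 (-1.97) and the lactate exporter Slc16a3 (-1.62). Of 26 other fatty acid genes 7 were higher, led by Gpihbp1 (8.29) and Fabp4 (7.15), and 11 lower, led by Acaa2 (-1.80) and Acsl3 (-1.78). Of 16 regulators 4 were higher, led by Pparg (5.73) and Epas1 (4.30), and 5 lower, led by Klf15 (-2.58) and Myc (-1.29). Of 11 hypoxia genes 4 were higher, led by Ndrg1 (4.01) and Ankrd37 (3.87), and 2 lower, P4ha2 (-1.86) and P4ha1 (-1.26).

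Within the endothelial class, coronary-like cells (188 to 367 per library) and endocardial-like cells (46 to 558) were set side by side, with no test planned. The glycolysis sum was 49.8 ± 7.41 in coronary-like and 31.4 ± 2.64 in endocardial-like cells, without overlap. Pkm stood at 8.16, 5.49, 7.37 and 6.48 against 3.36, 2.77, 3.60 and 3.17 UMIs per 10000, and Ldha at 11, 7.78, 10.9 and 9.31 against 5.63, 4.14, 5.79 and 5.53. Of 20 glycolysis genes, 9 were higher in coronary-like cells in all 4 libraries and 5 lower, and of 19 fatty acid genes, 6 were higher and 4 lower, where 17.8% of 11827 genes were higher in all 4 and 33.1% lower. Cd36 stood at 2.04, 7.61, 4.78 and 7.07 in coronary-like and at 0.364, 0.383, 1.10 and 0.682 in endocardial-like cells. Lpl stood at 0.746, 2.89, 2.63 and 2.86 against 0.503, 0.436, 0.715 and 0.471. For both genes the SAN region was the lowest coronary-like library.

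Atrial-like and ventricular-like cardiomyocytes were compared next, with atrial-like sums from the SAN region (2854 cells) and the AVN/His region (70 cells) and ventricular-like sums from the AVN/His region (2526 cells) and both ventricles. The fatty acid sum was lower in atrial-like cells, at 33.6 and 36.1 UMIs per 10000 against 47.9, 49.3 and 52.0, a difference of mean log2 levels of -0.51. The groups did not overlap, and atrial-like cells were also lower within the AVN/His library. The glycolysis sum overlapped, at 125.7 and 131.9 against 119.2, 130.8 and 123.3, and its difference of 0.05 changed sign in 4 alternatives. Median mitochondrial shares were 10.9% and 8.94% in atrial-like and 14.5% to 18.0% in ventricular-like cells, and with mitochondrial, hemoglobin and ribosomal protein genes left out the differences were -0.65 for the fatty acid sum and -0.09 for the glycolysis sum. With 1 library holding both classes, region and class cannot be told apart in the others.

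Of 18 tested fatty acid genes, 10 were called lower in atrial-like cells and none higher, and all 18 had a negative log2 fold change (median -0.49 against 0.00 over all genes). Of 20 glycolysis genes 4 were called lower and 1 higher. Of 13058 genes tested, 9.89% were called higher and 8.03% lower. Acsl1 changed most, at 0.363 and 0.245 UMIs per 10000 in atrial-like cells of the SAN and AVN/His regions and at 1.11, 1.31 and 1.56 in ventricular-like cells of the AVN/His region and left and right ventricles (log2 fold change -2.16 ± 0.221, adjusted p = 0.000640). Eci1 stood at 1.05 and 1.3 against 2.54, 2.75 and 2.43 (-1.33 ± 0.128, adjusted p = 0.000444), Acadm at 1.79 and 1.74 against 3.11, 3.40 and 3.37 (-1.07 ± 0.111, adjusted p = 0.000684). Fabp3 stood at 4.42 and 7.39 against 11.1, 9.88 and 11.46 (-1.06 ± 0.207, adjusted p = 0.0111), so the atrial-like values differed between the regions. None of these 4 genes overlapped between the groups.

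The other fatty acid genes called lower in atrial-like cells were Acadvl (0.743 and 0.746 against 1.24 to 1.44, -0.99), Etfa (2.16 and 2.60 against 3.66 to 3.84, -0.84), Acads (0.624 and 0.920 against 1.01 to 1.10, -0.70), Hadhb (2.14 and 1.86 against 2.60 to 3.01, -0.65), Hadh (1.35 and 1.07 against 1.5 to 1.67, -0.49) and Etfdh (0.719 and 0.711 against 0.869 to 0.915, -0.48). The call for Hadh was lost in 6 of 19 alternatives, those for Acads and Etfdh in 3. Plain totals, leaving out the SAN region and leaving out the right ventricle each ended all 3 calls, and leaving out either other library ended that for Hadh. All 10 genes had the same direction within the AVN/His library, whose sums were among those behind the calls, so this adds no separate evidence. Without the SAN region, where the 70 atrial-like cells of the AVN/His region stood alone and were assumed to vary like the other sums, 3 fatty acid genes (Acsl1, Acadm and Eci1) and 1 glycolysis gene (Pgam2, higher) were called, where 1.25% of genes were called higher and 0.779% lower.

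Pgam2 ran against the other glycolysis genes called, at 15.8 and 16.8 UMIs per 10000 in atrial-like cells against 7.78, 8.87 and 8.01 in ventricular-like cells (log2 fold change 0.82 ± 0.104, adjusted p = 0.00174). Pdk4 was higher too (0.218 and 0.245 against 0.113, 0.109 and 0.129, 0.77 ± 0.152, adjusted p = 0.0117). Both were higher within the AVN/His library as well as between libraries, though the sums of that library also entered the calls. Hk2 was lower (0.259 and 0.280 against 0.465, 0.376 and 0.546, -0.98 ± 0.20, adjusted p = 0.0138). Ldhb (9.24 and 9.35 against 10.5 to 12.7, -0.45), Tpi1 (8.81 and 8.74 against 9.50 to 11.4, -0.41) and Eno3 (5.52 and 5.63 against 6.41 to 6.69, -0.41) were lower with adjusted p of 0.0333, 0.0424 and 0.0262, and each of these calls was lost in 6 or 7 alternatives. Of the other lists, 7 of 26 other glucose genes were lower, led by Slc16a1 (-1.41) and the pyruvate dehydrogenase phosphatase Pdp1 (-1.33). Of 28 other fatty acid genes 7 were lower and none higher, led by Acsl3 (-1.06) and Acot13 (-1.03). Of 19 regulators 5 were lower, led by Mlxipl (-2.31) and Ppargc1b (-1.36). Of 12 hypoxia genes Adm (3.39) and P4ha1 (0.75) were higher and Higd1a (-0.87) lower.

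**Figure D5:**
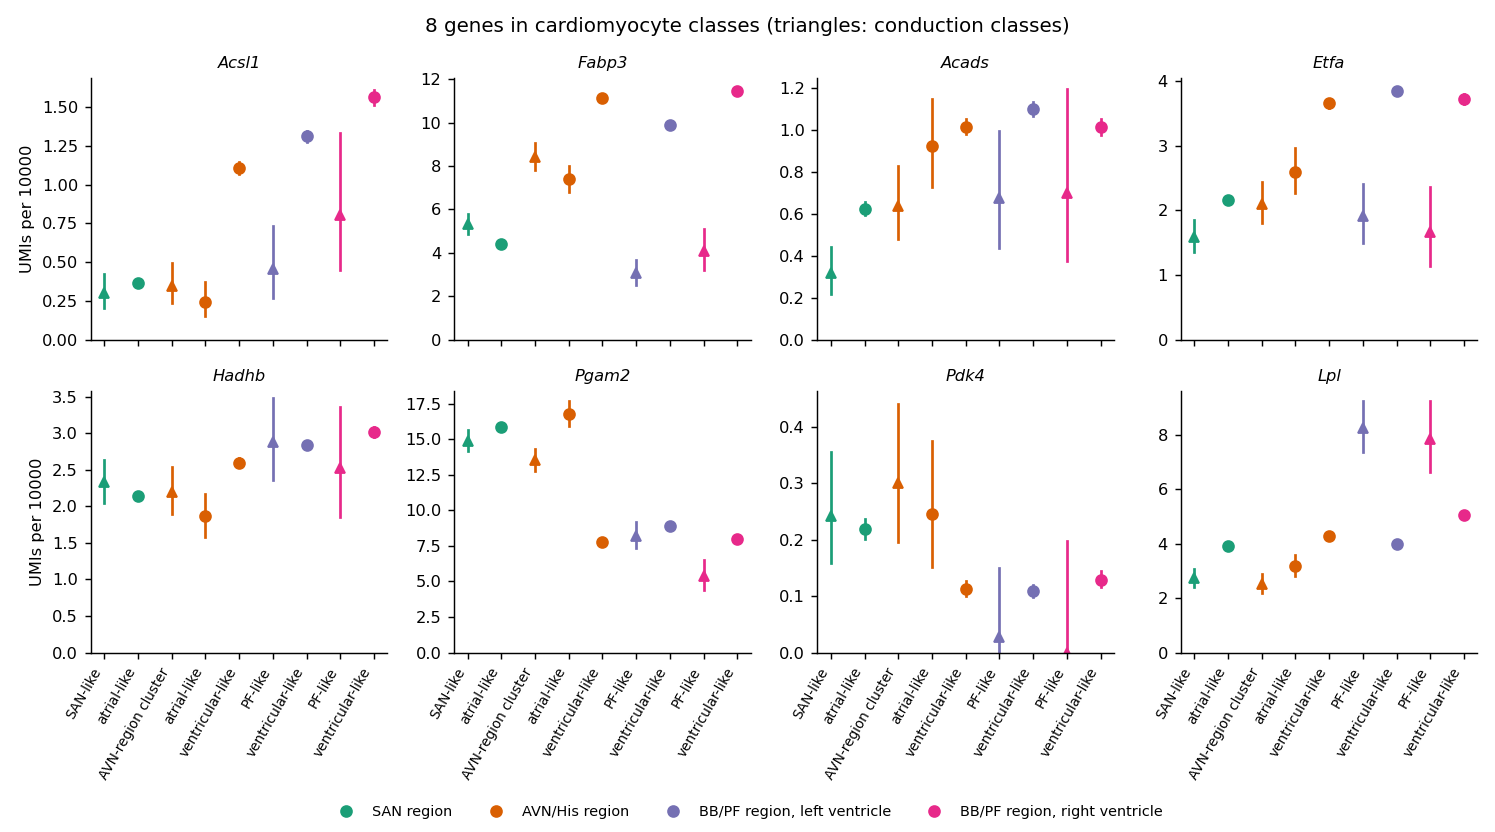
UMIs per 10000 of 8 genes in the cardiomyocyte classes of each library (points for atrial-like and ventricular-like, triangles for SAN-like, PF-like and AVN-region cluster cells), with 95% Poisson intervals. Acsl1, Fabp3 and Etfa are lower in both atrial-like sums and in all 3 of those classes than in ventricular-like sums, Pgam2 is higher in atrial-like sums, and Lpl is highest in PF-like cells.

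SAN-like cells, PF-like cells and the AVN-region cluster were compared with the other cardiomyocytes of their library, as the study set out to describe conduction cells. The sums rested on few cells: 115 SAN-like, 77 in the AVN-region cluster and 42 and 21 PF-like cells in the left and right ventricle. The fatty acid sum was lower in all 4 libraries, at 31.7 against 33.6 in the SAN region, 36.8 against 47.6 in the AVN/His region, 39.4 against 49.3 in the left and 38.9 against 52.0 in the right ventricle (mean log2 ratio -0.30 ± 0.15 SD). The other cardiomyocytes were atrial-like in the SAN region and mostly ventricular-like in the remaining libraries. Those of the SAN region included the 176 cells of the cluster led by Shox2. Against the 70 atrial-like cells of its own library, at 36.1, the AVN-region cluster at 36.8 was not lower. The glycolysis sum was 106.9 against 125.7, 121.0 against 120.8, 113.8 against 130.8 and 100.1 against 123.3 in the same order (-0.18 ± 0.13), lower in 3 libraries and level in the AVN/His region.

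Of 18 tested fatty acid genes 3 were called lower, where 0.793% of 11848 genes were called lower and 1.02% higher. Etfa stood at 1.59 in SAN-like cells, 2.11 in the AVN-region cluster and 1.91 and 1.67 in PF-like cells, against 2.16, 3.63, 3.84 and 3.72 in the other cardiomyocytes of the SAN region, AVN/His region, left and right ventricle (log2 fold change -1.11 ± 0.193, adjusted p = 0.0321). Acads stood at 0.317, 0.636, 0.673 and 0.699 against 0.624, 1.03, 1.10 and 1.01 (-1.01 ± 0.173, adjusted p = 0.0321). Acsl1 stood at 0.298, 0.347, 0.458 and 0.806 against 0.363, 1.06, 1.31 and 1.56 (-1.37 ± 0.271, adjusted p = 0.0479). All 3 genes were lower in 4 of 4 libraries, which are the libraries that gave the calls and so add no separate evidence. Against the 70 atrial-like cells of its own library, however, the 77 cells of the AVN-region cluster were higher for Acsl1 (0.347 against 0.245). Etfa (2.11 against 2.60) and Acads (0.636 against 0.920) were lower. On these plain levels 12 of 19 fatty acid genes were higher and 6 lower. Of 20 glycolysis genes, 13 were higher and 7 lower. The share over all genes was not counted, so these counts cannot be set against a background. Each call was lost in 8 to 13 alternatives, and without the AVN/His region, the left ventricle or the right ventricle no fatty acid gene was called. Without the SAN region 8 fatty acid and 4 glycolysis genes (Aldoa, Tpi1, Gapdh and Eno1) were called, all lower, where 7.35% of 11739 genes were called lower.

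No glycolysis gene passed the test in edgeR, while 9 of 20 had an unadjusted p under 0.05 (8 lower and 1 higher), where 11% of all genes were lower and 8.8% higher at that level. DESeq2 called 5, all lower, and 3.77% of all genes lower. Aldoa stood at 12.6, 14.1, 9.50 and 9.14 against 15.5, 16.6, 17.7 and 17.1 in the other cardiomyocytes (log2 fold change -0.86 ± 0.196, adjusted p = 0.0623). Pfkm ran the other way, at 1.06, 1.37, 1.24 and 1.08 against 0.770, 0.686, 0.713 and 0.75 (0.43 ± 0.173, adjusted p = 0.219). In simulated data of this size 13% of 2-fold and 67% of 4-fold changes were recovered. Of the other lists, Slc16a1 (-2.21), Acot13 (-0.95) and Bnip3 (-0.94) were called lower.

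PF-like cells alone, in the 2 BB/PF libraries, gave calls for 11 glycolysis genes (10 lower) and 14 fatty acid genes (13 lower) in a fit of 4 sums whose error rests on 63 PF-like cells, where 12.5% of 11667 genes were called lower and 7.41% higher. On plain levels, 8 glycolysis genes were higher in PF-like cells in both libraries and 9 lower, and 4 fatty acid genes were higher and 12 lower, where 37% of all genes were higher and 30.6% lower. Ldha, for example, stood at 16.5 and 14.0 UMIs per 10000 in PF-like cells against 13.3 and 12.4 in ventricular-like cells, and Pgam1 at 7.05 and 5.05 against 4.56 and 4.01. PF-like cells also carried more UMIs of macrophage markers (3.53 and 1.56 per 10000 against 0.0358 and 0.0525) and of mural markers (1.99 and 2.04 against 0.811 and 0.961), and the part of such cells in these values was not tested. Fabp3 stood at 3.07 and 4.09 UMIs per 10000 in PF-like cells of the left and right ventricle against 9.88 and 11.46 in ventricular-like cells (log2 fold change -1.95 ± 0.153). The 2 genes called higher were Lpl, at 8.26 and 7.85 against 3.97 and 5.07 (0.50 ± 0.144, adjusted p = 0.00413), and Slc2a4, at 0.538 and 0.591 against 0.219 and 0.264, from 20 and 11 UMIs (0.89 ± 0.321, adjusted p = 0.0298). Pdk4 had 1 and 0 UMIs in PF-like cells. Eno3 took 90.5% of the enolase UMIs in PF-like cells and 76.7% in ventricular-like cells, Pgam2 52.7% and 66.0% of the mutase UMIs. In SAN-like cells, where Ldha stood at 5.94 against 11.3 in atrial-like cells of the same library, Ldhb took 54.0% of the lactate dehydrogenase UMIs against 45.0%, and Pfkm took 42.2% of their phosphofructokinase UMIs against 32.1% there.

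Ventricular-like cells of the left and right ventricle are 1 library each, so the values carry counting error only and no test. The intervals lay apart for 14 of 20 glycolysis genes (4 higher and 10 lower on the right). They did so for 12 of 19 fatty acid genes (8 higher and 4 lower on the right). Of 13058 genes, 8.55% were higher and 19.3% lower on the right in this way, a share not matched for abundance. Intervals narrow as counts rise, and Gapdh lay apart at a log2 ratio of right over left of -0.03. The median log2 ratio was -0.02 for glycolysis and 0.05 for fatty acid genes. Pgk1 was the most unequal, at 0.338 on the left and 0.157 on the right, followed by Hk2 at 0.376 and 0.546. Pgk1 on the right was at 47.0% of the left level in all cardiomyocytes, 38.3% in fibroblast-like and 50.5% in coronary-like cells. Lpl stood at 3.97 and 5.07 and Fabp3 at 9.88 and 11.46. The median mitochondrial share of 14.5% on the left and 18.0% on the right moved with these values, and its part was not tested.

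Both sums were also taken over clusters of cardiomyocytes, formed without the 42 genes. The level of a region averages over its clusters, so a wider range over clusters than over regions follows by construction. Over 10 clusters of Zone I the glycolysis sum ran from 81.7 to 156.2 UMIs per 10000 and the fatty acid sum from 28.9 to 36.5. Over 12 clusters of Zone III the ranges were 61.8 to 157.2 and 31.4 to 58.7, and over 30 clusters of Zone II 51.8 to 179.8 and 27.5 to 63.1. The cluster with the lowest glycolysis sum had a mitochondrial share of 26.0%, 41.1% and 24.3% in Zones I, II and III, and the cluster with the highest sum 10.0%, 0.450% and 14.6%. The highest in Zone II was the unnamed cluster of 100 cells. The part of the mitochondrial share in these ranges was not tested.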

How the data were processed

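Single cells of 4 heart regions were sequenced with 10x 3′ chemistry, 1 library per region. The deposited values are raw UMI counts per gene and cell barcode that the authors made with Cell Ranger against mm10. The version and the annotation release are not given in the sources used here. The authors kept cells with 500 to 60000 genes and 1000 to 5000000 UMIs, and the same limits were applied here. The total was 49328589 to 58029660 UMIs per library, and 0 columns belonged to samples of other series. Intervals and floors cover counting error only (95%, exact Poisson or binomial; a floor is 3 counts of the total).

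Cells were clustered per zone in scanpy 1.11.5 (2000 variable genes, 10 principal components, 30 neighbours, Leiden resolution 0.8) with the 42 genes, the other lists and hemoglobin genes left out. A cluster was named if at least 50% and at least 3 of a class's markers stood above the midpoint between clusters. Among clusters of all cells, the name was withheld where the leading genes held more markers of another class. It was also withheld where they held none of its own, with under 75% of its markers passing or with low UMIs. A conduction name also needed 3 markers at least 0.25 (ln) above the other cells. Cardiomyocytes were clustered again at the lowest resolution from 0.8 to 3 that named a conduction cluster and, in Zones I and II, also an atrial cluster. This rule was chosen after clusters had been seen. The resolution was 0.8 in Zones I and III and 3 in Zone II. No doublets were removed in the main analysis, and cells with a Scrublet score of at least 0.2 were left out in an alternative. UMIs were summed per library and class (at least 50 cells for atrial and ventricular sums, 20 for conduction sums) and tested in edgeR 4.0.16 (quasi-likelihood test, TMM scaling, low-count filter, library as a block except between atrial and ventricular sums, Benjamini-Hochberg adjustment over all genes tested), with R 4.3.3. The SE is the absolute log2 fold change divided by the root of F. DESeq2 1.42.0 was an alternative. The fits were tested on simulated counts, where 71% of 2-fold changes were recovered for cardiomyocytes against non-muscle cells (13758 genes), 86% for endothelial-like against fibroblast-like cells (11827 genes), 62% for atrial-like against ventricular-like cells (13058 genes) and 13% for conduction classes (11848 genes). The simulation gave every sum the same mean share per gene, apart from the changed genes. It held no differences between libraries or regions and no unequal scaling, so these percentages hold for that setting only. All 42 genes were accounted for. Of the other lists, the 2 called genes with the largest change in each direction were named per comparison. The genes, lists and comparisons were chosen with earlier results of these data known. A result from the wider gene lists is not reported here.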

Additional observations from a re-analysis of the deposited data

Results flagged for a closer look

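Of 221 groups of 4 libraries examined, 13 had 1 library far from the other 3 by Dixon's criterion, and chance flags about 1 in 20 groups. The library was the SAN region in 9 of them, the left ventricle in 3 and the AVN/His region in 1. In cardiomyocytes, the SAN region stood apart for Pgam2 at 15.81 UMIs per 10000 (others 7.990 to 8.864), Pfkp at 0.8769 (1.048 to 1.056) and Etfa at 2.142 (3.590 to 3.825). Its cardiomyocytes were nearly all atrial-like, so region and class cannot be told apart. In non-muscle cells Fabp3, which could not be told from background there, stood at 0.4587 in the SAN region (0.6683 to 0.7001). In coronary-like cells of the SAN region Lpl stood at 0.7461 (2.632 to 2.894) and Etfdh at 0.2025 (0.2291 to 0.2322), and in all endothelial-like cells Etfdh stood at 0.2074 (0.2308 to 0.2334). Gpi1 in endocardial-like cells of the SAN region stood at 1.669 (1.382 to 1.420), and the macrophage-like glycolysis sum there at 45.5 (53.13 to 53.89). In the left ventricle, the fibroblast-like glycolysis sum stood at 43.94 (33.62 to 35.20) and fibroblast-like Hk1 at 0.3601 (0.2553 to 0.2597), and Acadl in the 46 endocardial-like cells stood at 0.9291 (0.6448 to 0.6818). Ldha in endocardial-like cells of the AVN/His region stood at 4.136 (5.528 to 5.789).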

How the results depend on the processing

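Of the genes called, 37 of 40 kept their call and direction in every alternative for cardiomyocytes against non-muscle cells, 9 of 20 for endothelial-like against fibroblast-like cells, 4 of 16 for atrial-like against ventricular-like cells and 0 of 3 for conduction classes. Causes were not tested. For cardiomyocytes the log2 ratio of the glycolysis sum was 1.769 against fibroblast-like and 1.278 against macrophage-like cells alone. That of the fatty acid sum was 1.763 against endothelial-like and 1.969 against macrophage-like cells alone, 1.782 at 1.5 times the resolution and 1.624 without its most abundant gene. For endothelial-like cells the glycolysis ratio was 0.3613 with high Scrublet scores left out, and 3 fatty acid genes were called without mitochondrial, hemoglobin and ribosomal protein genes. For atrial-like cells the glycolysis difference was -0.08597 without those genes, -0.005886 at 0.5 times the resolution and -0.02583 without cells over 25% mitochondrial UMIs, and 3 glycolysis genes were called on plain totals. The fatty acid difference was -0.6495 without those genes and -0.4261 without its most abundant gene. For conduction classes, the glycolysis genes called numbered 5 in DESeq2, 2 without a filter on low counts, 1 at 1000 genes per cell, 1 with globin genes among the variable genes and 11 for PF-like cells alone. The fatty acid genes called numbered 1 on plain totals, 6 in DESeq2, 1 at 1000 genes per cell, 14 for PF-like cells alone, and 0 at 1.5 times the resolution, with 20 components, by Scrublet, without cells over 25% mitochondrial UMIs and from clusters of all cells. The limit of 25% mitochondrial UMIs and the globin genes were added after seeing the data.

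Leaving out 1 library gave 20 to 20 glycolysis genes called, 17 to 17 fatty acid genes and sums of 1.565 to 1.667 and 1.842 to 1.893 for cardiomyocytes. For endothelial-like cells the ranges were 10 to 14, 3 to 4, 0.186 to 0.2757 and 0.03567 to 0.2911, for atrial-like cells 1 to 3, 3 to 10, -0.0152 to 0.0865 and -0.5924 to -0.4611, and for conduction classes 0 to 4, 0 to 8, -0.2452 to -0.1438 and -0.3709 to -0.2595. The labels number every sample 1, so the block is the library. Without the replicate block 20 glycolysis and 17 fatty acid genes were called for cardiomyocytes, 10 and 4 for endothelial-like cells and 2 and 2 for conduction classes.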

Other observations

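Eno1 stood lower in the right than in the left ventricle library in cardiomyocytes (78.4% of the left level), fibroblast-like (72.6%) and coronary-like cells (74.6%), but not in mural-like cells (105%). Pgk1 was lower on the right in each of 6 classes compared, at 29.2% to 63.9% of the left level, from 4 to 58 UMIs per library outside cardiomyocytes. With 1 library per side, side and library cannot be told apart.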
